A study of Drosophila melanogaster with 2 samples.

Results

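miR-184 is a single microRNA hairpin, 1 of 174 hairpins counted in small RNA libraries from the central nervous system (CNS) of Drosophila melanogaster. It was taken by its name, mir-184, from the read tables, and it was chosen by its read count, the highest of each library. Its levels are therefore a description of why it was chosen, and no test is drawn from them. Its arm use, exact reads and other reads were not part of that choice.

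Either stage is represented by a single library, made from pooled CNS tissue of about 100 animals of the strain w[1118] Iso31, grown at 24 C. The larval library came from wandering larvae of the third instar, dissected as ventral ganglion with optic lobes and without eye discs. The adult library came from brains with antennal lobes, taken 3 to 5 days after eclosion, with males and females in about equal numbers at either stage. No animal was treated, and no mutant was compared. Stage and dissected region change together and cannot be told apart. In such bulk tissue, fewer cells of a type and less RNA per cell cannot be told apart either.

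A microRNA is cut from the stem of a folded transcript by Drosha and then Dicer-1, which leaves a duplex of a 5' and a 3' arm. Usually 1 arm is kept in Argonaute-1 and guides it to messenger RNAs, while the other, the passenger or star strand, is degraded. miR-184 is shared between flies and vertebrates and is read from its 3' arm. In the fly it is known for its roles in the female germline and early embryo, where its loss ends egg production. In mice it has been tied to the proliferation of neural stem cells, and in humans a change in its seed causes disease of the cornea and lens.

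In the Ensembl annotation of assembly BDGP6, the miR-184 hairpin lies on chromosome arm 2R from 13329402 to 13329501, on the minus strand. The mature 3' arm is annotated as 22 bases (13329420 to 13329441) and the 5' arm as 21 bases (13329460 to 13329480), with 18 bases between them. The hairpin lies inside an exon of a long noncoding RNA, lncRNA:CR44206 (13329352 to 13344808, same strand), for which RefSeq gives the synonym pri-mir-184. Among the 170 hairpins of the tables found by name in that annotation, none lay within 10 kb of it. The nearest was mir-989, 815850 bases away, so miR-184 is not a member of a close cluster by these positions.

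The larval library held 822500 hairpin reads over 139 listed hairpins and the adult library 1665159 over 169, so the adult library was 2.02 times as deep. Levels are given in RPM, the reads per 1000000 reads of all hairpins, and a single read stood for 1.22 RPM of the larval and 0.601 RPM of the adult library. All intervals are exact 95% binomial intervals (Clopper-Pearson). They cover the counting error of reads only, since the kit marks no molecules and no stage was repeated. Every mature read of miR-184, 181978 larval and 211162 adult, was also counted as unique to this hairpin, whereas 15 hairpins of each library shared mature reads with another.

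miR-184 was read 182505 times from larval and 212927 times from adult CNS. These counts equalled 221891 and 127872 RPM, or 22.2% (22.1 to 22.3) of the larval and 12.8% (12.7 to 12.8) of the adult library. Thus the adult library held more miR-184 reads, while the larval library held more of them per hairpin read. Set against the median listed hairpin, which had 104 larval and 130 adult reads, miR-184 was 1755 times as abundant in the larval and 1638 times in the adult library. Among larval reads, the 131 least abundant of the 139 listed hairpins together had 175957 reads, fewer than miR-184 alone. In the adult library the same held for the 152 least abundant of 169, with 211814 reads.

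The lead over the next hairpin was small. miR-276a, a miRNA of olfactory memory, was second in the larval library with 164566 reads, so that miR-184 exceeded it 1.11-fold. In the adult library the second was miR-276b with 202977 reads, exceeded 1.05-fold, and miR-276a followed with 201745. miR-957 was the fourth there with 184563 reads.

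The first place depended on what was counted. With reads equal to the annotated mature form alone, miR-184 stayed first in the larval library with 171805 reads. In the adult library it was the third with 183144, behind miR-276b (198695) and miR-276a (194538). With hairpins of the same number added together, miR-276 stood first at either stage, with 30.7% of larval and 24.3% of adult reads, and miR-184 second. This sum was 1.39 times the miR-184 count in the larval library and 1.90 times in the adult library.

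**Figure D1:**
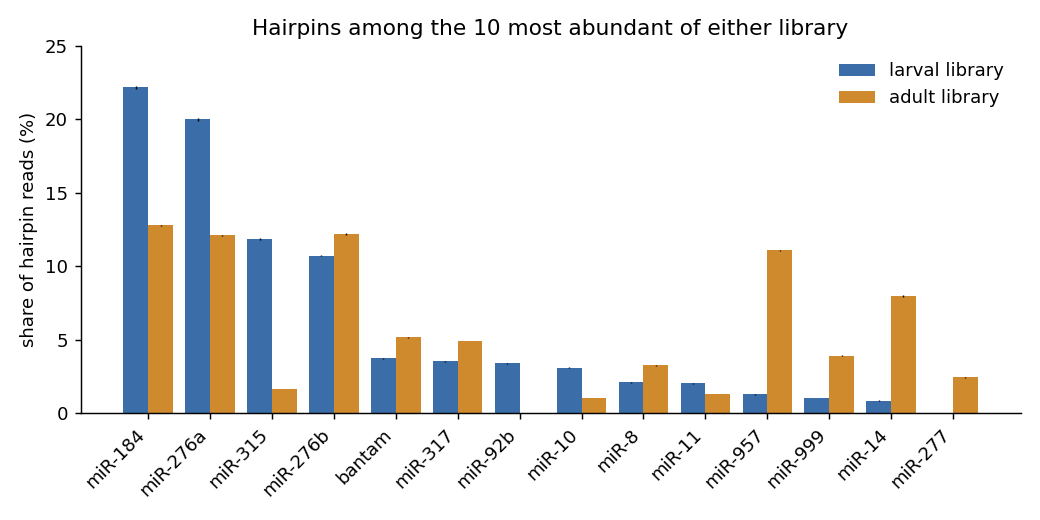
Share of hairpin reads (%) of the 14 hairpins that were among the 10 most abundant of the larval library (blue) or the adult library (orange). Bars are single libraries and the short lines are exact 95% counting intervals. miR-184 stands at 22.2% and 12.8%, just above miR-276a at 20.01% and 12.1%.

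The lead of miR-184 over the other abundant hairpins differed between the libraries. miR-184 took 26.8% of the reads of the 10 leading larval hairpins and 16.8% of those of the adult 10. Against bantam, a miRNA that promotes growth and blocks cell death, it was 5.90-fold higher in the larval library and 2.46-fold in the adult library. Against miR-957 it was 17.1-fold and 1.15-fold higher, and against miR-14, a regulator of cell death and fat metabolism, 25.4-fold and 1.6-fold. The lead was wider in the adult library over miR-92b (6.52-fold larval and 698-fold adult), miR-315 (1.87-fold and 7.77-fold) and miR-10 (7.16-fold and 12.2-fold).

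The comparison between the libraries asks whether the level differs between larval and adult CNS. In RPM miR-184 was 1.74-fold higher in the larval library (1.72 to 1.75), a log2 ratio of adult over larval of -0.80. A call of higher in a stage needed a ratio of 2 or more with an interval that left out 1, and miR-184 met neither call. Of the 114 hairpins with at least 20 reads in all and at least 10 RPM in either library, 74 or 64.9% were called, 46 of them (40.4%) as adult-high and 28 (24.6%) as larval-high. Their median log2 ratio was 0.47, and that of miR-184 was the 30th from the larval end. Because miR-184 was chosen for its level, this place is given as a description.

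The ratio leaned on the total used for scaling. With the 14 hairpins of the leading lists left out of the totals, every log2 ratio dropped by 0.52. In this setting the larval level of miR-184 was 2.49 times the adult level, past the size of a call. There, 41 hairpins were larval-high and 40 adult-high, and the adult-high share of all calls went from 62.2% to 49.4%. With miR-184 itself left out of the totals the log2 ratios fell by 0.16, its own ratio was 1.94-fold, and 28 and 45 hairpins were called.

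In the authors' deposited table the fold change of miR-184 is 1.74 on RPM, higher in the larval library, and -1.17 on reads, higher in the adult library. The table lists its p-value by Kal's Z-test as 0, as for 68 of 174 hairpins. Of the 174, 94 or 54.0% have a Bonferroni corrected p-value below 0.05 there. That test compares the reads of these libraries and takes no account of a spread between animals or dissections. In 27 of the 134 hairpins for which the authors' deposited table gives a fold change, the reads were higher in the adult and the RPM in the larval library.

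**Figure D2:**
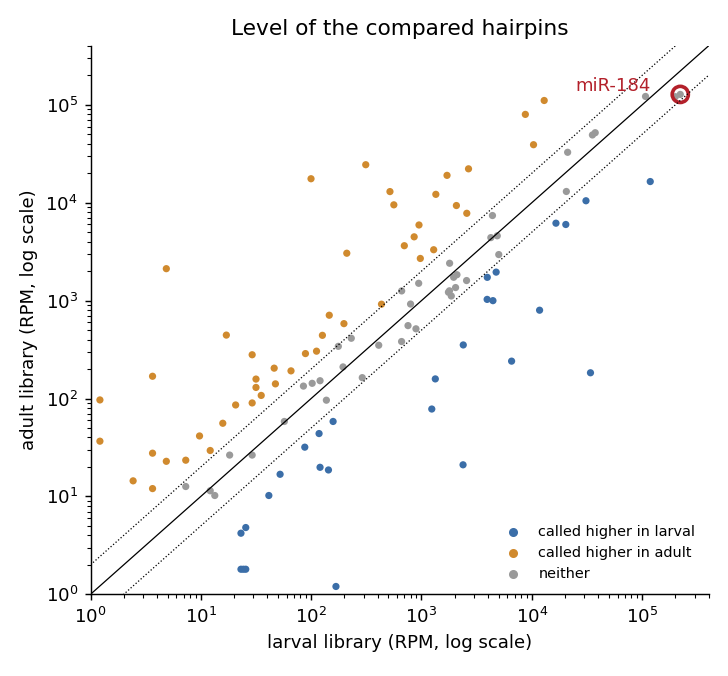
Level of the 114 compared hairpins in RPM, larval library on the x axis and adult library on the y axis, both log scales. The solid line marks equal levels, the dotted lines 2-fold, and a hairpin at 0 is drawn at the level of 3 reads. miR-184 (ringed) sits at 221891 and 127872 RPM, below the line of equal levels and inside the 2-fold band, with miR-276a close beside it.

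The hairpins with ratios nearest to that of miR-184 were much less abundant. miR-996, with 733 larval and 858 adult reads, was 1.73-fold higher in the larval library (1.57 to 1.91). miR-12 had 543 and 636 reads and the same ratio of 1.73 (1.54 to 1.94). miR-31a had 4129 and 4920 reads and a ratio of 1.70 (1.63 to 1.77). Over only 2 libraries such a likeness is a single ratio, and all 3 intervals hold the value of miR-184.

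Nearly all miR-184 reads came from the 3' arm. The larval library had 181898 reads of the 3' arm and 80 of the 5' arm, or 2274 to 1. The adult library had 211093 and 69, or 3059 to 1. The 5' share of mature reads was 0.0440% (0.0349 to 0.0547) and 0.0327% (0.0254 to 0.0414), and the intervals overlapped. The odds of a 5' against a 3' read were 1.35-fold higher in the larval library, with an exact conditional interval of 0.963 to 1.88. A difference in arm use was thus not detectable at this depth, and the interval allows up to 1.88-fold.

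Few hairpins with reads of either arm were as one-sided. Over 69 hairpins with reads of either arm and no fewer than 20 mature reads per library, the median share of the less abundant arm was 4.17% at the larval and 1.82% at the adult stage. miR-184 was the 6th lowest in the larval library, below all but miR-31a, miR-957, miR-92b, miR-995 and miR-276a. It was the 5th lowest in the adult library, where miR-957, miR-995, miR-999 and miR-31a were lower. Hairpins with no read on 1 arm in a library are not among these 69, while 86 hairpins had at least 20 mature reads per library. Those left out include more one-sided ones. The mature reads of miR-990, 801 larval and 4486 adult, were all from the 5' arm. The places given here thus hold within the 69 only. The 5' share was called different between the libraries, by a move of at least 10 percentage points with intervals apart, in 16 of the 69 or 23.2%. miR-184 was not one of them, but so low a share can hardly move by 10 points.

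The passenger arm was still measurable. Its 80 larval reads, 97.3 RPM, outnumbered all reads of 63 of the 139 listed larval hairpins, and its 69 adult reads, 41.4 RPM, those of 79 of 169. As an arm of its own it ranked 93rd of 218 in the larval and 115th of 249 in the adult library, above the median arm of 39.5 and 41 reads. Per hairpin read the 5' arm was 2.35-fold higher in the larval library (1.68 to 3.29), against 1.74-fold (1.73 to 1.76) for the 3' arm. By the rule above, the 5' arm alone would be called and the 3' arm would not, but the intervals of these ratios overlap.

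**Figure D3:**
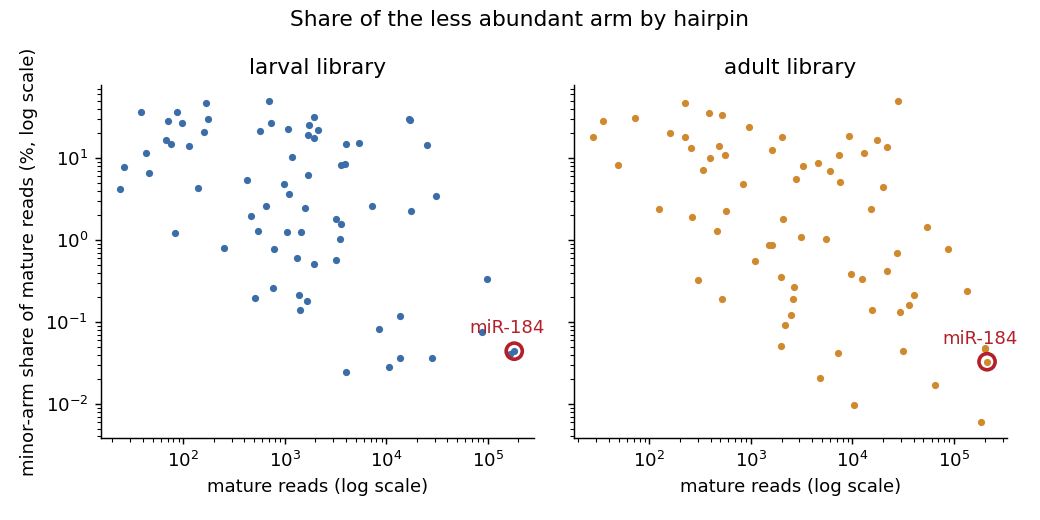
Share of mature reads from the less abundant arm (%, log scale) against mature reads (log scale) for 69 hairpins, in the larval library (left) and the adult library (right). miR-184 (ringed) lies at the lower right of each panel, at 0.0440% and 0.0327%.

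Most 3' reads had the annotated sequence, and fewer did so in the adult library. Exact reads made up 171778 of 181898 larval 3' reads, 94.4% (94.3 to 94.5), and 183124 of 211093 adult ones, 86.8% (86.6 to 86.9). The share dropped by 7.69 percentage points, which is beyond counting error and under the 10 points of a call. Variant reads, which lie on the arm without being equal to the annotated form, numbered 10120 and 27969. The odds of a variant against an exact 3' read were 2.59 times as high among adult reads (2.53 to 2.65). The files do not say in which bases or ends the variants differ.

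Exact and variant reads of the 3' arm therefore went in opposite directions per hairpin read. The exact form was 1.90-fold higher in the larval library (1.89 to 1.91), at 208849 against 109974 RPM. The variants were 1.37-fold higher in the adult library (1.33 to 1.40), at 12304 against 16797 RPM. With the totals taken without the 14 leading hairpins, all adult over larval ratios are lower by 0.52 on the log2 scale, and the log2 ratio of 0.45 for the variants changes sign.

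A drop of the exact share was common. Over 62 hairpins with at least 20 reads of the 3' arm in each library, 44 had a lower exact share in the adult library and 16 a higher one, with medians over hairpins of 73.7% and 68.0%. Of these, 15 or 24.2% were called different, 10 of them higher in the larval library. Among the 5 higher in the adult library, miR-13b-1 and miR-13b-2 had nearly the same adult 3' counts. These were 1404 exact of 1964 and 1403 of 1963, so the calls may not be separate cases. miR-184 had the 18th largest drop in percentage points, and the rise in its odds of a variant was the 12th largest of the 62.

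Among the 14 most abundant hairpins the exact share of the main arm was lower in the adult library in 10 and higher in 4. In percentage points miR-184 had the largest drop of these. It was close to that of miR-10, a miRNA of the Hox complex, which went from 75.5% to 68.0%. bantam went from 75.1% to 69.98%, miR-8 from 91.0% to 87.9%, and miR-276a from 98.9% to 96.5%. miR-11 and miR-317 went the other way, from 34.9% to 50.0% and from 58.7% to 68.9%. The share of miR-10 dropped by 7.47 points, which the intervals of the shares do not separate from the 7.69 points of miR-184. The same holds for miR-92b, which dropped by 4.13 points on few adult reads.

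**Figure D4:**
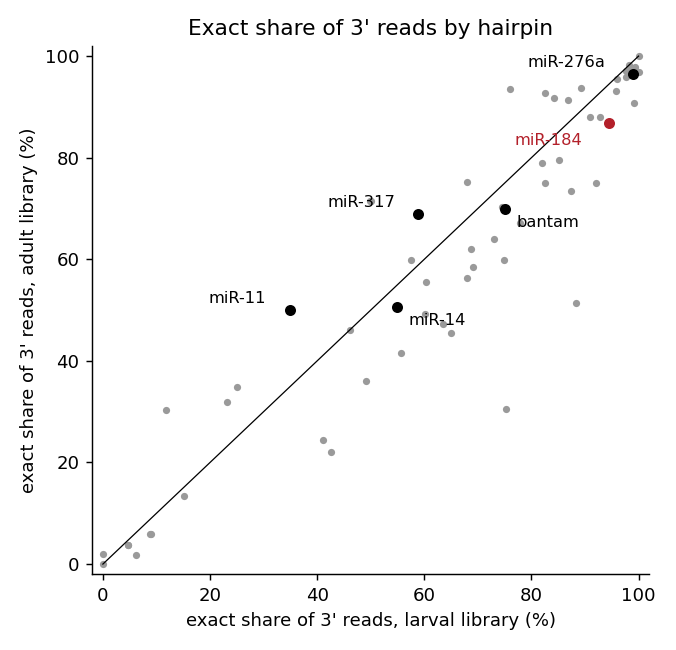
Exact share of 3' arm reads (%) in the larval library (x axis) and the adult library (y axis) for 62 hairpins, with a line of equal shares. miR-184 (red) is at 94.4% and 86.8%, below the line. miR-11 and miR-317 lie above it.

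With its many reads, miR-184 also weighed on the exact share of each whole library. Over all hairpins, exact reads made up 77.2% of larval (77.1 to 77.3) and 76.5% of adult mature reads (76.4 to 76.5). Without miR-184 these were 72.1% (72.0 to 72.2) and 74.9% (74.8 to 75.0). The library with the higher exact share is thus the larval one with miR-184 and the adult one without it. miR-184 gave 27.7% of the exact but 5.55% of the variant mature reads in the larval library, and 15.0% and 7.46% in the adult library.

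The 5' arm had a lower exact share than the 3' arm. In the larval library 27 of its 80 reads were exact, 33.8% (23.6 to 45.2), and in the adult library 20 of 69, 29.0% (18.7 to 41.2). The intervals overlapped, so no difference between the stages was detectable with so few reads. The medians over 57 hairpins with at least 20 reads of the 5' arm were 54.2% and 45.7%, and 15 of these or 26.3% were called different.

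Other reads, which fit the hairpin outside either mature arm, were few. They numbered 527 in the larval library, 0.289% of miR-184 reads (0.265 to 0.314), and 1765 in the adult library, 0.829% (0.791 to 0.868). Their odds against mature reads were 2.89 times as high in the adult CNS (2.62 to 3.19), and per hairpin read they were 1.65-fold higher there (1.5 to 1.83). The rise of 0.54 percentage points was no call, while 8 of 89 hairpins or 8.99% made one. So low a share can hardly move by the points that a call needs, so the lack of a call says little. The median other share of those 89 hairpins was 0.783% at the larval and 1.37% at the adult stage, and 58 had a higher share in the adult library. miR-184 lay 33rd and 37th from the lowest. By number, though, its other reads ranked second in the larval library after miR-317 (15681) and were the third in the adult library after miR-317 (46222) and miR-34 (8665).

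**Figure D5:**
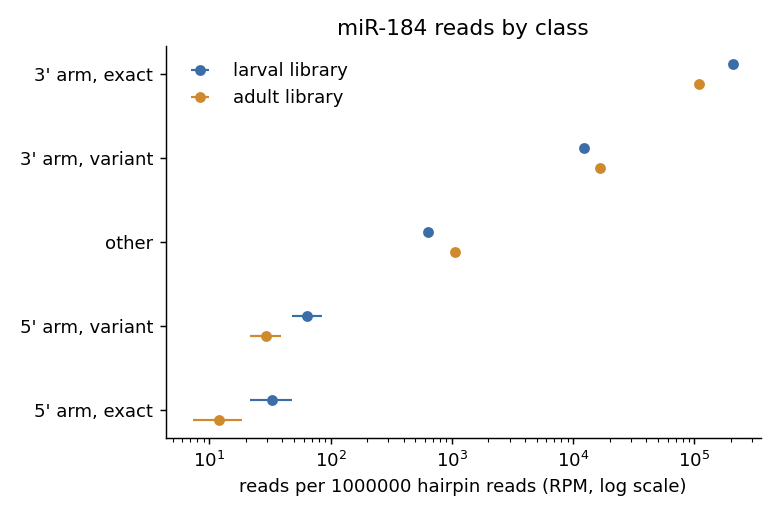
Reads of miR-184 by class in RPM (log scale), larval library in blue and adult library in orange, with exact 95% counting intervals. Exact 3' reads lie at 208849 and 109974 RPM, while variant 3' reads (12304 and 16797) and other reads (641 and 1060) were higher in the adult library by the table totals; for the variants this turns with totals without the 14 leading hairpins. The 5' arm classes all lie under 100 RPM.

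Taking all 5 read classes together, the make-up of miR-184 reads differed between the stages by 8.13 percentage points of total variation distance, the share of reads that would have to change class. This was the 32nd lowest of 86 hairpins that had no fewer than 20 mature reads per library, whose median was 11.5. The hairpins most like miR-184 in make-up, averaged over both libraries, were miR-8, miR-957 and miR-995, at 3.6, 4.2 and 5.65 points. miR-8, the fly member of the miR-200 family, was closer in the adult (1.79) than in the larval library (5.41). miR-957 and miR-995 were closer in the larval library, at 1.46 and 1.86 points, than in the adult one, at 6.93 and 9.43.

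A list of other miRNAs taken as shared with vertebrates was set beside miR-184. That sharing was not checked here for each member, among them miR-252 (2.57-fold, adult-high). All 26 hairpins of that list passed the floor, and 5 were higher in the larval library, 13 in the adult library and 8 in neither, beside 24.6% larval-high and 40.4% adult-high of all 114. The 18 calls among 26 lie near the 64.9% called over all hairpins. The median log2 ratio was 1.02, against 0.47 over the 114. The list did not hold whole families. It left out miR-9b, miR-9c and miR-79, relatives of miR-9a, and miR-995 and miR-998, relatives of miR-285. All of these were called larval-high, so the adult lean of the list depends on how it was cut. miR-10 (2.96-fold) and miR-9a, which limits sensory organ precursors (4.45-fold), were among the larval ones. let-7, a timer of metamorphosis (16.9-fold), and miR-34, which affects ageing of the brain (8.32-fold), were among the adult ones. In 6 of the 26 the log2 ratio was lower than that of miR-184. Together the 26 held 11.4% of larval and 12.5% of adult reads, so miR-184 alone had 1.94 times their sum in the larval library and 1.02 times in the adult library.

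Since miR-184 is best known from the ovary, miRNAs with roles or expression in the fly ovary and germline formed another list. Of its 12 hairpins 9 passed the floor, with 5 higher in the larval library, 2 in the adult library and 2 in neither, beside 24.6% and 40.4% of all 114 hairpins. The median log2 ratio was -1.46, against 0.47 over the 114. miR-9c (14.7-fold) and miR-306 (3.83-fold) were larval, and miR-278, which acts in germline stem cell division, was adult (5.22-fold). Of the larval-high members, miR-9c, miR-306 and miR-79 share a cluster, and miR-311 (21 and 8 reads) and miR-312 (19 and 7 reads) share another. The 5 calls thus come from 2 loci. miR-184 exceeded the sum of the list 4.03-fold in the larval and 2.16-fold in the adult library.

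Markers of cell types varied in level. miR-124, which marks neurons, had 2109 larval and 2670 adult reads, or 2564 and 1603 RPM. Its hairpin total was 1.6-fold higher in the larval library (1.51 to 1.69), in the same direction as miR-184. miR-184 exceeded that total 86.5-fold and 79.7-fold. The arms of miR-124 differed, as its 5' share of mature reads fell from 67.9% (larval) to 18.2% (adult). Its 3' arm had 619 larval and 1663 adult reads, a larger rise than the 2.02-fold depth. By the table totals that arm was thus higher in the adult library, opposite to miR-184. Of the ovary follicle cell markers, miR-318 had 4 and 38 reads, or 4.86 and 22.8 RPM, and was called adult-high (4.69-fold), while miR-989 had 0 and 4 reads. Of 8 testis hairpins 6 were listed, with 3 larval and 24 adult reads in all. Together the muscle markers miR-1 and miR-133 stood at 565 larval and 13143 adult RPM, nearly all of it miR-133. miR-1 alone stood at 47.4 and 141 RPM. miR-133 is known from muscle but was not checked here for neural expression. The photoreceptor marker miR-210, likewise not checked, had 99.7 and 17586 RPM. The part of these neuron, muscle and photoreceptor markers in the lower adult share of miR-184 was not tested.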

How the data were processed

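Counts of reads per annotated hairpin and arm, as deposited by the authors, were the start. Trimmed reads were split, per the file headers, into 5' arm, 3' arm and other reads, with exact and unique reads in columns of their own. The submitters' processing notes name CASAVA 1.8 and dm3. For the miRNA annotation, the counter and the aligner, nothing is given in the sources used here. RPM values stand in the authors' deposited table, with signed fold changes (read here as a score, since a negative sign marks the direction) and p-values of Kal's Z-test. Its totals equalled the counts of the library tables for all 174 hairpins.

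Shares, ratios and their exact 95% intervals were computed from the counts with scipy 1.17.1. Log2 ratios had 0.5 reads added to each count. With 1 library per stage no p-value was computed, and calls compare libraries. The call rule was tested on simulated counts that carried counting error alone. That test says nothing of the spread between animals or dissections. Alternatives used edgeR 4.0.16 TMM factors, DESeq2 1.42.0 size factors, other totals and other read classes.

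The hairpins named were miR-184, the 10 most abundant of each library, the 3 nearest in ratio, the 3 nearest in read make-up, and members of the lists of conserved, ovary and germline, and marker miRNAs. Any other name was added where it stood next to miR-184 in a ranking. The hairpin and the lists were chosen with earlier results of these data known. Positions come from Ensembl release 115 (BDGP6) and were combined with no dm3 position. The lists of candidate hairpins were not used here, and no mature sequence of the hairpin is printed.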

Additional observations from a re-analysis of the deposited data

How the results depend on the processing

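The direction of the level, higher in the larval library, held under every alternative tried. The log2 ratio of adult over larval was -0.80 as reported and -0.96 with totals without miR-184. It was -1.32 with totals without the leading hairpins, where the ratio passed 2-fold, -0.86 with TMM factors, -0.94 with DESeq2 size factors, -0.78 with mature reads and -0.89 with exact reads. The share of miR-184 was 22.7% of larval and 13.2% of adult mature reads, 22.5% and 12.97% of unique reads, and 27.7% and 15.0% of exact reads. The 5' share was 0.0157% and 0.0109% among exact reads and 0.521% and 0.175% among variant reads. These are different classes of reads. The 5' arm had a lower exact share than the 3' arm, so its share is lower among exact than among variant reads. The rank of miR-184, an alternative chosen after seeing the data, went from 1 to 3 in the adult library with exact reads, and to 2 in each library with hairpins of a shared number summed. Counts of called hairpins stayed within 1.5 times under all settings run. Exact shares were the same with unique reads, since no mature read of miR-184 was shared. The other share was the same by construction, since other reads were not split into unique and shared ones. No paired analysis was possible because each stage has 1 library. Depth limits what the 5' arm can show, with 80 and 69 reads in all and 27 and 20 exact ones.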
